A study of Mus musculus with 6 samples.

Results

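The genes described here are 9 components of steroid hormone signaling in the mouse uterus, taken by name from receptors, receptor chaperones and coregulators. They comprised the estrogen receptors Esr1 and Esr2, the progesterone receptor Pgr, the glucocorticoid receptor Nr3c1, the membrane-associated Pgrmc1, the co-chaperones Fkbp4 and Fkbp5, the coactivator Ncoa2 and the estrogen-regulated Greb1. All 9 were found among the 20145 genes that could be matched to probes of the array, and all 9 were among the 14847 that passed the filter on dim probes. The 9 names were put together with results of these arrays already known, and Greb1 is a gene that the study itself names for its expression in these mice.

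Whole uteri were collected at gestation day (GD) 3.5 of natural pregnancy from 3 Sox17f/f and 3 Sox17ed/ed mice. The females were mated at 8 to 10 weeks of age, the embryos were flushed out, and total RNA of 1 mouse was hybridized to each Agilent 1-color expression array. Both genotypes carry the floxed Sox17 allele on both chromosomes, and the Sox17f/f females, which the labels also call WT, were the littermate controls. Sox17ed/ed mice carry in addition 1 copy of iCre in the Ltf locus (Ltf iCre/+), a driver that the study describes as limited to the uterine epithelium of the adult, so that stroma, muscle and vessels are not targeted.

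Estrogen and progesterone act on the uterus through receptors that bind DNA once hormone is bound. Before that, the receptors are held by an HSP90 complex in which the immunophilins FKBP4 and FKBP5 compete for a place, FKBP4 favoring receptor activity and FKBP5, itself a gene induced by glucocorticoid and progesterone, damping it. Active receptors recruit coactivators such as NCOA2, whereas corepressors oppose them. In the preimplantation uterus, progesterone action is required to end estrogen-driven growth of the epithelium.

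Of the 9 genes, Greb1 and Fkbp5 were higher in Sox17ed/ed uteri and the other 7 were not called. Greb1 rose 3.28-fold and Fkbp5 rose 1.71-fold, whereas no log2 fold change beyond 0.11 was found for the brightest probe of any of the 4 nuclear receptors. A gene was called when limma gave an unadjusted p under 0.01 and the fold change was at least 1.4, the thresholds of the study's methods. By that rule 2 of the 9 genes were called, both higher and 0 lower, against 12.5% of all genes tested (6.04% called higher and 6.47% called lower). Greb1 and Fkbp5 were also the 2 of 9 that passed a Benjamini-Hochberg adjusted p under 0.05, against 18.9% of all genes. They were the only ones of the 9 with an unadjusted p under 0.05 as well. Unadjusted p values that low were common, since Pgrmc1, next of the 9 at 0.0546 in limma, ranked only 5199 of 14847 genes by p. The 3 Sox17ed/ed arrays lay apart from the 3 Sox17f/f arrays in 5 of the 9 genes (Nr3c1, Pgrmc1, Fkbp5, Ncoa2 and Greb1), against 40.6% of all genes. The median log2 fold change of the 9 genes was 0.09 and that of all genes tested was -0.0016. The median size of the change, whatever its direction, was 0.11 for the 9 genes and 0.17 for all genes, and 3 of the 9 were above the latter.

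Values are normalized log2 signals, where a difference of 1 is a doubling, and they are compared between mice for the same probe only. Because whole tissue was measured, fewer cells of a type and less RNA per cell cannot be told apart. All 6 arrays lay on 1 slide with each genotype in its own line of that slide, so line and genotype cannot be told apart either. Precision is limited by having 3 arrays per genotype, for which the smallest two-sided p of an exact permutation test on any gene alone is 0.1.

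**Figure D1:**
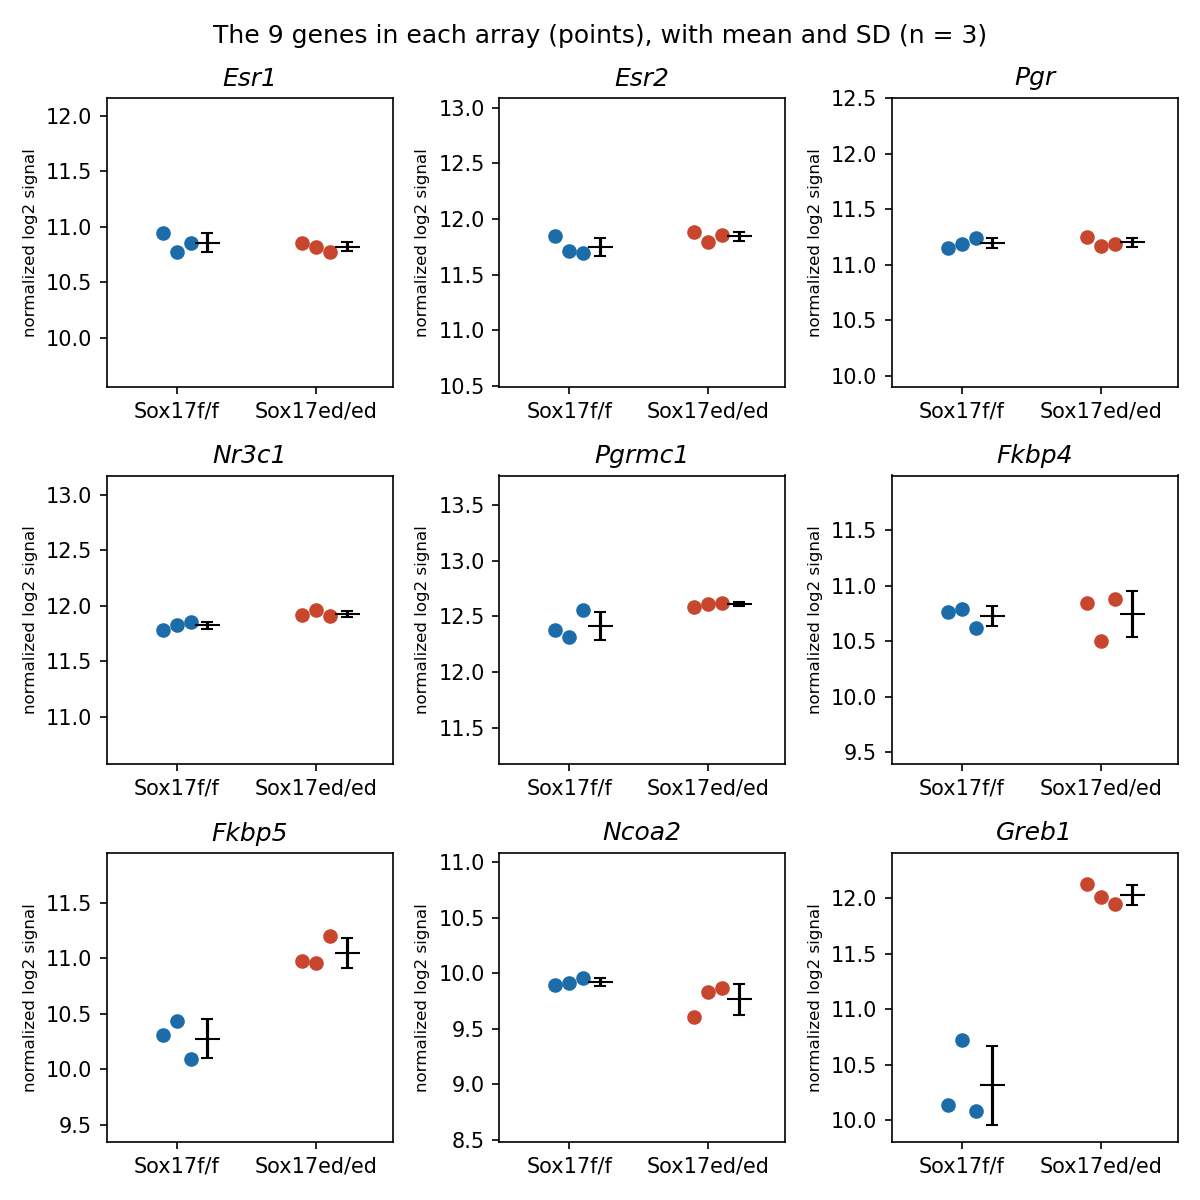
Normalized log2 signal of the 9 genes in each of the 6 arrays, with Sox17f/f in blue and Sox17ed/ed in red, all panels spanning the same range of log2 units. Black bars are the mean and SD of 3 arrays, and the genotypes are clearly separated for Fkbp5 (10.09 to 10.43 against 10.96 to 11.20) and Greb1 (10.08 to 10.72 against 11.94 to 12.13).

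The targeted gene was examined first as a check of the labels. Sox17, the epithelial transcription factor deleted in these mice, was 12.17 ± 0.09 (SD, n = 3) in Sox17f/f uteri and 9.72 ± 0.11 (n = 3) in Sox17ed/ed uteri, a 5.47-fold lower signal (limma, adjusted p = 2.66e-05). Ltf, the secreted lactoferrin gene whose locus holds the iCre, was 5.63 higher on the log2 scale in Sox17ed/ed uteri (adjusted p = 1.16e-05). Sox17ed/ed mice keep 1 Ltf allele without iCre, and the part of the iCre allele in the Ltf value was not tested. Between 33686 and 38941 of 59305 spots per array other than controls were well above background, and 0 were saturated.

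Esr1 encodes the main estrogen receptor of the uterus. The array prints its brightest probe (A_52_P237077) at 10 spots, so the spread of single spots within an array can be given as well. The Sox17f/f arrays read 10.94, 10.78 and 10.86, and the Sox17ed/ed arrays read 10.86, 10.82 and 10.78. The genotypes overlapped, with the highest and the lowest of the 6 values both among the Sox17f/f mice. The log2 fold change was -0.04 ± 0.07 (SE; 95% confidence interval -0.21 to 0.13; limma, adjusted p = 0.738), an interval of 0.865-fold to 1.09-fold. Over the 10 single spots of an array the SD was 0.05 to 0.11, and the SD over mice was 0.08 in Sox17f/f and 0.04 in Sox17ed/ed. These are unlike measures, because the value of a mouse is the mean of its 10 spots and varies less than a single spot does. How much of the spread over mice is error of measurement was not tested.

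**Figure D2:**
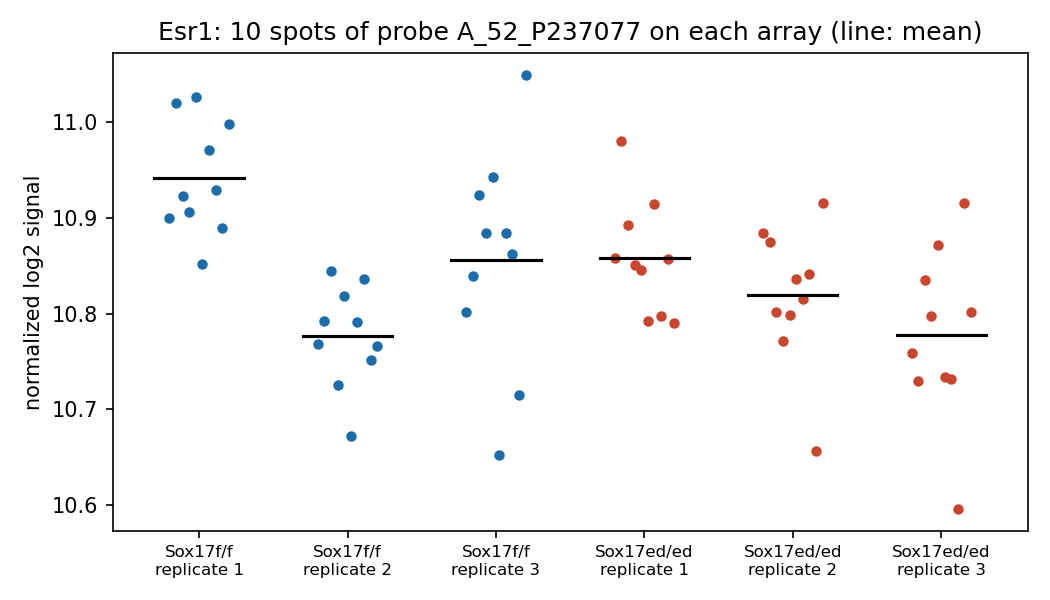
Normalized log2 signal of the 10 spots of Esr1 probe A_52_P237077 on each array, with Sox17f/f in blue and Sox17ed/ed in red and a line at the mean of each array. The array means run from 10.78 to 10.94, and the spots of every array overlap those of the arrays of the other genotype.

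A pair of further Esr1 probes did not behave alike. Probe A_51_P474658 differed by -0.01 (95% confidence interval -0.21 to 0.18). Probe A_55_P2030883 read 9.30, 9.18 and 9.33 in Sox17f/f and 9.08, 9.06 and 8.71 in Sox17ed/ed, so its genotypes lay apart. Its log2 fold change was -0.32 (95% confidence interval -0.62 to -0.02), with an unadjusted p of 0.0422 and an adjusted p of 0.167 over the 32735 probes tested by limma, and it was not called. All 3 probes are assigned to the same transcript accession, and which part of the transcript each reads was not analysed here.

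Esr2, the second estrogen receptor, was 11.75 ± 0.08 (SD, n = 3) in Sox17f/f uteri and 11.84 ± 0.04 (n = 3) in Sox17ed/ed uteri. Its arrays overlapped, and the log2 fold change of 0.09 had a 95% confidence interval of -0.08 to 0.26 (limma, adjusted p = 0.405). Pgr, the progesterone receptor through which the uterus is made receptive, changed least of the 9 genes. Its signals were 11.15, 11.18 and 11.24 in Sox17f/f and 11.25, 11.17 and 11.18 in Sox17ed/ed, so the arrays were interleaved. The log2 fold change was 0.01 ± 0.06 (SE; 95% confidence interval -0.14 to 0.16; adjusted p = 0.946), which leaves room for a level between 0.905 and 1.12 times that of Sox17f/f. Of all genes tested, 97.4% differed by more than Pgr did. A second Pgr probe (A_51_P213476) differed by 0.02, with a 95% confidence interval of -0.17 to 0.21.

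Nr3c1, the glucocorticoid receptor, read 11.78, 11.83 and 11.85 in Sox17f/f and 11.92, 11.96 and 11.91 in Sox17ed/ed. Every Sox17ed/ed array was above every Sox17f/f array, yet the difference of 0.11 ± 0.06 (SE) was small, with a 95% confidence interval of -0.04 to 0.25 and an adjusted p of 0.273 (limma). Its other probe (A_52_P254174) overlapped between the genotypes and differed by 0.05. Pgrmc1, a membrane-associated heme-binding protein linked to progestin responses outside the nucleus, showed the same arrangement. Its arrays read 12.38, 12.31 and 12.56 in Sox17f/f and 12.59, 12.61 and 12.62 in Sox17ed/ed, so that Sox17f/f replicate 3 was nearly level with the Sox17ed/ed mice. The log2 fold change was 0.19 ± 0.08 (SE; 95% confidence interval -0.01 to 0.39; adjusted p = 0.156).

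Of the co-chaperones, each read by 1 probe, Fkbp5 was called and Fkbp4 was not. Fkbp4, whose protein supports progesterone receptor activity in the uterus, read 10.77, 10.79 and 10.62 in Sox17f/f and 10.85, 10.50 and 10.88 in Sox17ed/ed. Replicate 2 of Sox17ed/ed was the lowest of the 6 and replicate 3 the highest, and the log2 fold change was 0.02 ± 0.12 (SE; 95% confidence interval -0.27 to 0.31; limma, adjusted p = 0.937). The sign of that value changed with the scaling (-0.0043 after a 75th percentile shift) and with normexp background correction (-0.09), so no direction is given for Fkbp4.

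Fkbp5, the co-chaperone that damps receptor activity, read 10.31, 10.43 and 10.09 in Sox17f/f and 10.98, 10.96 and 11.20 in Sox17ed/ed. The lowest Sox17ed/ed array was above the highest Sox17f/f array. The log2 fold change was 0.77 ± 0.12 (SE), or 1.71-fold, with a 95% confidence interval of 0.49 to 1.05 on the log2 scale (limma, adjusted p = 0.00675). Of all genes tested, 8.84% had a larger change. Taken within each array, the log2 signal of Fkbp5 minus that of Fkbp4 lay between -0.53 and -0.36 in Sox17f/f and between 0.13 and 0.46 in Sox17ed/ed. The genotypes differed by 0.75 in this difference (p = 0.1, two-sided exact permutation test, which can go no lower here and so cannot decide). The difference restates the separate changes of the pair and is not further evidence. Its sign within a mouse carries no meaning because the probes differ.

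Ncoa2, a coactivator of the p160 family that binds nuclear receptors in the presence of hormone, was not called. It read 9.89, 9.91 and 9.96 in Sox17f/f and 9.60, 9.83 and 9.86 in Sox17ed/ed, every Sox17ed/ed array being below every Sox17f/f array. The difference of -0.15 ± 0.09 (SE) had a 95% confidence interval of -0.37 to 0.06 and an adjusted p of 0.273 (limma), and Sox17ed/ed replicate 1 lay well below the other two. Without that array the difference was -0.07.

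Greb1, a cofactor of the estrogen receptor that estrogen itself induces, changed most. Its brightest probe (A_55_P2114779) read 10.13, 10.72 and 10.08 in Sox17f/f and 12.13, 12.01 and 11.94 in Sox17ed/ed. Sox17f/f replicate 2 was higher than the other Sox17f/f mice but still far below every Sox17ed/ed array. The log2 fold change was 1.71 ± 0.18 (SE), or 3.28-fold with a 95% confidence interval of 2.43 to 4.43 (limma, adjusted p = 0.00158), and 2.90% of all genes tested had a larger change. The other Greb1 probe (A_55_P2114776) read 9.66, 10.15 and 9.47 in Sox17f/f and 11.52, 11.29 and 11.45 in Sox17ed/ed. It gave 1.66 ± 0.19 (SE; adjusted p = 0.00449 over all probes), so both probes rose by nearly the same amount and both were highest in the same Sox17f/f mouse. Without Sox17f/f replicate 2 the brightest probe gave 1.91. Greb1 minus Esr1 within an array lay between -0.81 and -0.05 in Sox17f/f and between 1.17 and 1.27 in Sox17ed/ed, a difference of 1.75 (p = 0.1 in the same exact test). That value likewise restates the separate changes of the pair and is not further evidence.

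**Figure D3:**
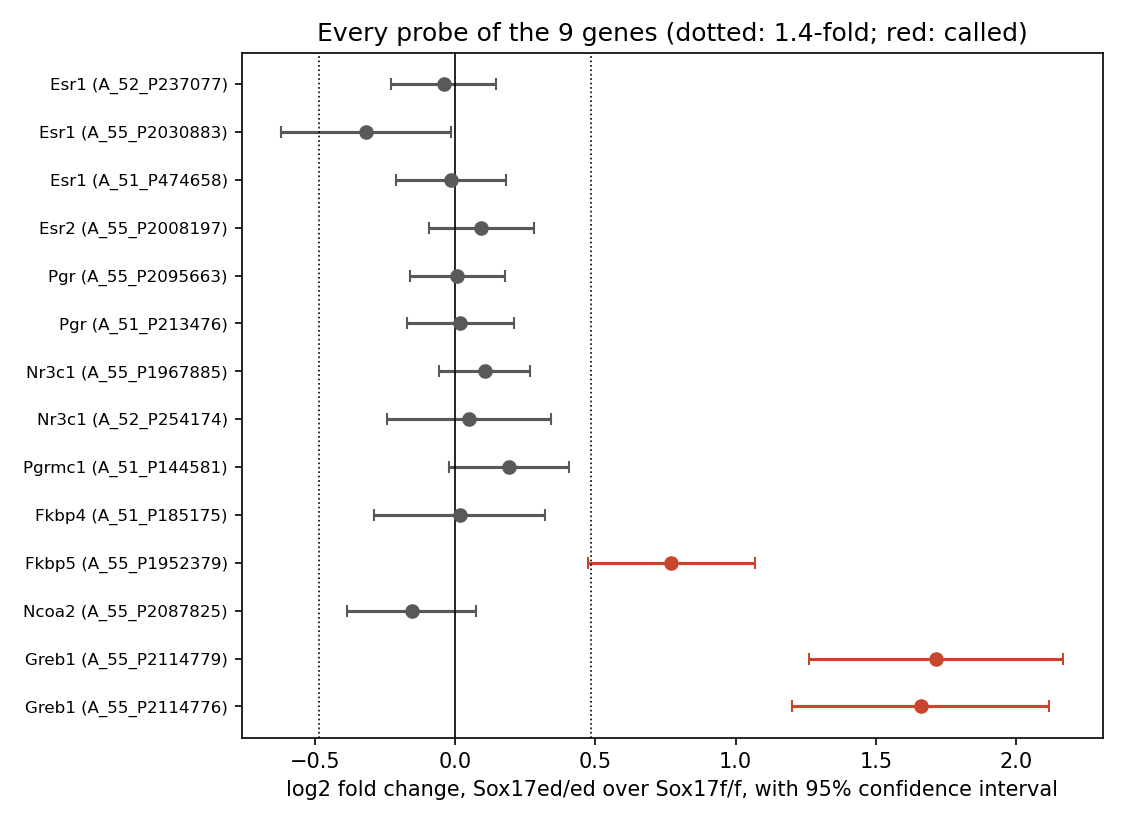
Log2 fold change (Sox17ed/ed over Sox17f/f) of every one of the 14 probes of the 9 genes, with the 95% confidence interval of limma's fit over all probes. Dotted lines mark 1.4-fold and red marks a call, which the pair of Greb1 probes (1.71 and 1.66) and the Fkbp5 probe (0.77) received.

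The promoters of the called genes are shown because the receptors measured here act by binding short DNA motifs. RefSeq windows on GRCm38.p6, from 250 bases upstream of a start to 50 bases past it, were present for 7 of the 9 genes (9 windows), and Nr3c1 and Ncoa2 had none in the table used here. The full estrogen response element, searched on both strands as GGTCANNNTGACC, was in 0 of the 9 windows and in 0.07% of 32851 windows of all genes. Its half-site GGTCA, which is part of the full element, was in 4 of the 9 windows and in 40.5% of all windows. The glucocorticoid and progesterone type element, searched as GNACANNNTGTNC, was in 0 of the 9 and in 0.475% of all. The SOX core ATTGT was in 2 of the 9, both of them Greb1, and in 31.0% of all. The stretches printed here are the upstream 250 bases, 5′ to 3′ on the gene's strand; capitals mark the estrogen half-site on either strand, and these letters are a description and not binding sites.
Greb1, start at the farther upstream position, chr12:16800887-16801136, minus strand, GRCm38.p6, with 1 half-site beginning 88 bases before the start: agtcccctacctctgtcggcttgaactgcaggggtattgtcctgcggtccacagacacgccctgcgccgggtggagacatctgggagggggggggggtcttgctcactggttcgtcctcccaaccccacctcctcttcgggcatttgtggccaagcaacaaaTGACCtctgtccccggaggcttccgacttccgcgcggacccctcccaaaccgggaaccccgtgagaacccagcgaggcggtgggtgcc
Greb1, start farther downstream, chr12:16757240-16757489, minus strand, GRCm38.p6, with half-sites beginning 194 and 85 bases before the start: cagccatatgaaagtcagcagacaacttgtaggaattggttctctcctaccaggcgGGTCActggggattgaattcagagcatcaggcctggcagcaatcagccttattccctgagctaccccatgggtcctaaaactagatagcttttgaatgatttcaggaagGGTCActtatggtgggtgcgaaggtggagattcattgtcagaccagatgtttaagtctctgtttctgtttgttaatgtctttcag
Fkbp5, chr17:28486150-28486399, minus strand, GRCm38.p6, with 0 half-sites: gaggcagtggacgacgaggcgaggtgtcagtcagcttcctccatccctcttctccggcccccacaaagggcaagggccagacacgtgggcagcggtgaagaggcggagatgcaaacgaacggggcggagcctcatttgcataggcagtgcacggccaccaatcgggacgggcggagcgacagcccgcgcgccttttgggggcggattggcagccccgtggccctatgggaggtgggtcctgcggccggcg
Of the genes that rose, Greb1 therefore held half-sites in both windows and Fkbp5 held none in its window, and 2 windows of Esr1 and Esr2, which were not called, held them as well.

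The remainder of the pathway was read from lists of genes that were likewise written with earlier results known. Over all genes tested 6.04% were called higher and 6.47% lower, and the counts of each list stand beside those shares. Among other steroid and membrane progestin receptors, 11 of 13 passed the filter, of which 3 were called higher and 1 lower, with a median log2 fold change of 0.21. Paqr8, a membrane progestin receptor, fell 3.61-fold (limma, adjusted p = 0.00196), whereas its relatives Paqr5 (0.69 on the log2 scale, adjusted p = 0.00252) and Paqr6 (0.73, adjusted p = 0.0507) rose. The orphan receptor Esrrb was not well above background on any Sox17f/f array and was at least 8.34-fold higher in Sox17ed/ed (adjusted p = 0.00636). It passed the filter on dim probes through the Sox17ed/ed arrays alone, so its place among the 3 called higher follows in part from that filter. Leaving out any 1 of the Sox17ed/ed arrays reduced the number called higher from 3 to 1. Pgrmc2, the closest relative of Pgrmc1 (-0.33, adjusted p = 0.0164), passed the adjusted threshold below 1.4-fold. The mineralocorticoid receptor Nr3c2 differed by 0.21 (95% confidence interval -0.50 to 0.93).

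No gene of the chaperone machinery that holds the receptors was called. Of 19 tested genes 0 were called in either direction, 5 had an unadjusted and 2 an adjusted p under 0.05 in limma, and the median log2 fold change was 0.02. Over all genes tested 12.5% were called and 18.9% had an adjusted p under 0.05, so the lack of calls in so short a list does not set it apart. Unadjusted p values under 0.05 were common over all genes too, a limma p of 0.0546 ranking only 5199 of 14847. Hsp90aa1 and Hsp90ab1, the HSP90 proteins themselves, differed by -0.01 (95% confidence interval -0.26 to 0.23) and 0.10 (-0.06 to 0.26). The p23 gene Ptges3 differed by -0.07 and the adaptor Stip1, which hands receptors from HSP70 to HSP90, by 0.05. Fkbp5 was thus the member of this complex that was called among those measured here.

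Among 25 tested coactivators other than Ncoa2, 1 was called higher and 0 lower, with a median log2 fold change of -0.02. That gene was Ppargc1a, a coactivator of energy metabolism (1.13, limma, adjusted p = 0.0359), and its call was lost without Sox17f/f replicate 2, without Sox17ed/ed replicate 2 and when no filter on dim probes was applied. The other p160 coactivators did not move alike, with Ncoa1 at 0.06 (adjusted p = 0.778) and Ncoa3 at 0.46 (adjusted p = 0.0154, below 1.4-fold), beside -0.15 for Ncoa2. Of 20 tested corepressors 0 were called, 5 had an unadjusted and 3 an adjusted p under 0.05 in limma, and the median was 0.02. The shares over all genes, 12.5% called and 18.9% at an adjusted p under 0.05, apply to both of these short lists as well. An unadjusted p under 0.05 was, as given above, common over all genes. Nrip1, a hormone-dependent corepressor that estrogen and progesterone regulate in the uterus, was 0.44 higher (adjusted p = 0.00736, below 1.4-fold), and Ncor1 differed by -0.04.

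Many of the genes listed as answering estrogen or progesterone were called, whereas Esr1, Esr2, Pgr and Nr3c1 were not. Because the lists were written with earlier results known, this contrast is a description and was not tested. Of 17 tested estrogen-responsive genes 9 were called higher and 2 lower, with a median log2 fold change of 1.52. Ltf, whose locus carries the iCre, is among the 9, and without it 8 of 16 were called higher and 2 lower, with a median of 1.0. Clca1 was well above background on 1 of the 3 Sox17f/f arrays and is given as a bound, at least 1426-fold higher (adjusted p = 3.42e-05). The cornified envelope gene Sprr2f was 5.97 higher on the log2 scale (adjusted p = 1.54e-05). The 2 that fell were the immediate early gene Fos (-2.09, adjusted p = 0.000234) and the transcription factor gene Cebpb (1.99-fold lower, adjusted p = 0.00053). Since 7 of the 17 were named by the study for these mice, their direction is not independent evidence. Those 7 were all called higher, and of the other 10 genes 2 were called higher and 2 lower, with a median of 0.10.

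Of 22 tested progesterone-responsive genes 1 was called higher and 13 lower, with a median log2 fold change of -0.66. Sox17, the gene deleted in these mice, is among the 13, and without it 1 of 21 was called higher and 12 lower, with a median of -0.64. Acod1 and the growth factor Areg were not well above background on any Sox17ed/ed array and were at least 222-fold and at least 13.0-fold lower (limma, adjusted p = 9.22e-06 and 0.00124), and both passed the filter through the Sox17f/f arrays alone. Ihh, the epithelial hedgehog ligand induced by progesterone, fell 8.05-fold (adjusted p = 6.63e-05), and Il13ra2 was the gene called higher (1.12, adjusted p = 0.000717). By the adjusted threshold alone 2 genes of the list were higher. The study names 13 of these genes for these mice, of which 10 (Sox17 included) were called lower and 0 higher. Of the other 9 genes 1 was called higher and 3 lower, with a median of 0.17. For Hand2 and Nr2f2 the study reports less stromal protein staining in these mice and a similar pattern by qRT-PCR. On these arrays Hand2 was 0.32 higher (95% confidence interval 0.02 to 0.62, limma, adjusted p = 0.129) and Nr2f2 differed by -0.02 (adjusted p = 0.893). Neither was called.

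Of 15 tested glucocorticoid-responsive genes, a list to which Fkbp5 itself would belong, 4 were called higher and 4 lower, with a median of 0.08. Fkbp5 would belong to the progesterone-responsive list as well. There 13 of 22 genes were called lower and 1 higher, whereas Fkbp5 rose by 0.77 on the log2 scale. Lcn2 (3.76, limma, adjusted p = 0.00103), which is also on the estrogen list, and the kinase gene Sgk1 (1.68, adjusted p = 0.00124) were highest. Tsc22d3, a common readout of glucocorticoid receptor activity, rose as well (0.62, adjusted p = 0.00285), whereas Cebpd (-1.20, adjusted p = 0.000298) and Dusp1 (-1.03, adjusted p = 0.00429) were called lower. The list thus had no common direction. The metallothionein genes Mt2 (-1.75, adjusted p = 8.50e-05) and Mt1 (-1.49, adjusted p = 0.000115) were lowest, both of them named by the study, and without them 4 of 13 were called higher and 2 lower.

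Enzymes that make or remove active steroid changed in both directions, 2 of 14 tested genes being called higher and 3 lower, with a median of -0.03. Akr1c18, which inactivates progesterone, was not well above background on any Sox17ed/ed array and was at least 10.0-fold lower (limma, adjusted p = 0.000241), having likewise passed the filter through the Sox17f/f arrays. Srd5a1, a steroid reductase, fell 2.73-fold (adjusted p = 0.00248). Hsd17b11 (0.59, adjusted p = 0.00625) and Hsd11b2, which inactivates glucocorticoid (0.49, adjusted p = 0.0303), were higher. The number called higher was 1 in place of 2 after a 75th percentile shift, after normexp correction, with the deposited processed values, and without Sox17f/f replicate 1 or 3 or Sox17ed/ed replicate 2 or 3.

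**Figure D4:**
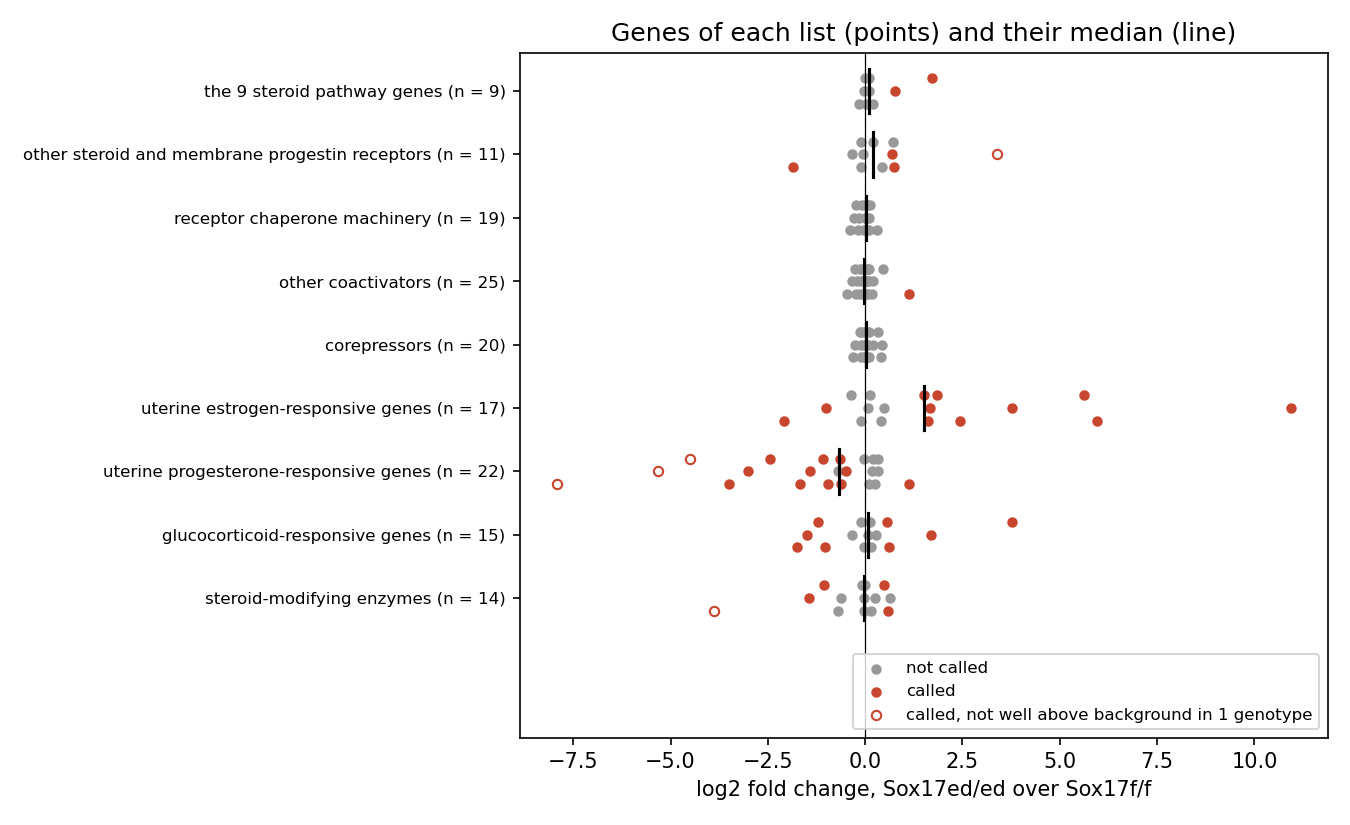
Log2 fold change (Sox17ed/ed over Sox17f/f) of each tested gene in the 9 steroid pathway genes and in the 8 lists, with a black line at the median. Red marks a call and open circles mark genes not well above background in 1 genotype, whose positions, like that of Clca1 at the far right, are measured values and not bounds; the receptor chaperones and corepressors hold no call, while the median of the estrogen-responsive genes is 1.52 and that of the progesterone-responsive genes is -0.66.

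Markers of the cell types in a whole uterus were measured beside these genes, and 12.5% of all genes tested were called (18.9% at an adjusted p under 0.05). Unadjusted p values under 0.05 were common over all genes, a limma p of 0.0546 ranking only 5199 of 14847. Of 13 epithelial markers 6 were called higher and 1 lower, and their summed linear signal ran from 49725 to 51529 in Sox17f/f and from 54534 to 67199 in Sox17ed/ed. Of 9 stromal markers 0 were called (5 at an unadjusted and 3 at an adjusted p under 0.05 in limma), with a median log2 fold change of 0.03. Their sums were 339406 to 347688 in Sox17f/f and 302015 to 327775 in Sox17ed/ed. Without Dcn, the collagen-binding decorin gene, they overlapped (225008 to 235208 and 219251 to 237178). Dcn was picked after its values were seen, and no other list was treated so. The overlap therefore follows from that choice and does not show the stroma to be unchanged. Of 8 smooth muscle markers 1 was called lower, 5 had an unadjusted p under 0.05, all of them lower, and 2 an adjusted p under 0.05, with sums of 494465 to 546202 in Sox17f/f and 368430 to 443905 in Sox17ed/ed. The part of these marker levels in the values of Greb1 and Fkbp5 was not tested. Of 7 leukocyte markers 0 were called (2 at an unadjusted and 1 at an adjusted p under 0.05), and their sums were 25103 to 26590 in Sox17f/f and 28122 to 32487 in Sox17ed/ed. Of 8 endothelial markers 1 was called higher and 1 lower (6 at an adjusted p under 0.05), with sums of 14939 to 16069 in Sox17f/f and 13341 to 14047 in Sox17ed/ed. The stratified markers Krt6a, Ivl and Dsg3 were below the filter, while 1 of the 4 tested, Krt5, was called higher. The others tested were not called, with Krt14 at 0.30, Krt13 at 0.06 and the basal cell marker Trp63 at -0.12. Krt5 was not well above background on any Sox17f/f array, passed the filter through the Sox17ed/ed arrays alone and was at least 5.25-fold higher (adjusted p = 0.0446). Ovary and adipocyte lists had 3 and 2 tested genes and 0 calls, with 0 genes at an unadjusted p under 0.05.

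The calls of Greb1 and Fkbp5 held in every alternative that was run. Over 15 alternatives, 6 of which left out 1 array each, the log2 fold change of Greb1 ran from 1.60 to 1.91 and its adjusted p from 1.30e-05 to 0.0106, and that of Fkbp5 ran from 0.68 to 0.85 with an adjusted p from 0.000341 to 0.0398. None of the other 7 genes reached an adjusted p under 0.05 in any of them, the lowest being 0.0609 for Pgrmc1.

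**Figure D5:**
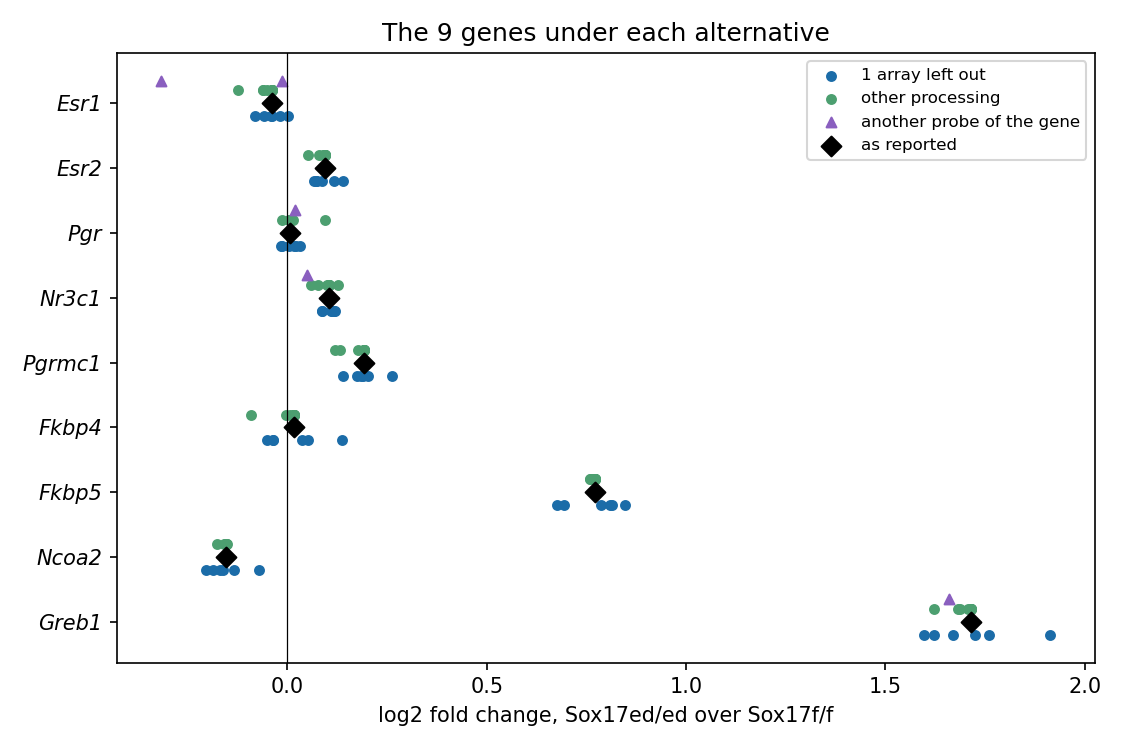
Log2 fold change (Sox17ed/ed over Sox17f/f) of the 9 genes as reported (diamonds), with 1 array left out (blue), with other processing (green) and with another probe of the same gene (triangles). Greb1 stays between 1.60 and 1.91 and Fkbp5 between 0.68 and 0.85, while Esr1, Pgr and Fkbp4 have points on both sides of 0.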

How the data were processed

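Whole uteri of 3 Sox17f/f and 3 Sox17ed/ed mice were measured, grouped by the labels. The authors deposited 1-color scanner intensity for each array, with background subtracted and trends within the array removed by Feature Extraction (11.0.1.1 per the file headers, 9.1 per the labels), no normalization between arrays, and a table of the same processed intensity averaged by probe, used as an alternative. Other deposited columns hold flags for spots. The study's methods name quantile normalization and a fold change of at least 1.4 with an unadjusted p under 0.01.

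Log2 intensities were quantile normalized, control and outlier spots (169 to 302 per array) were left out, replicate spots were averaged by probe, and a probe entered the fit if 3 or more of the 6 arrays read it well above background. Because the array's own annotation is on mm9, the GRCm38.p6 gene table served only to name 26582 of 55681 probes by accession. The brightest probe stood for a gene. Differences were tested with limma 3.58.1 (lmFit, eBayes) in R 4.3.3, adjusted over all genes. Python 3.11.15 and matplotlib 3.10.9 were used for tallies and plots, and the steps were tested on simulated data. A bound compares the bright group's mean with, per array of the dim group, the higher of its own signal and the lowest signal well above background; this was also applied to Clca1, which 1 of 3 Sox17f/f arrays measured.

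The genes and lists were chosen with earlier results of these data known. The text names all 9 genes, Sox17, Ltf, the 2 highest and 2 lowest called genes of each list and a set of relatives fixed by name, some of which are not reported here; Paqr5, Hsd17b11, Krt5, Dcn and the genes below the filter were named after their values were seen. No source says that equal replicate numbers mark a shared litter or day, and deviations of same-numbered arrays correlated at 0.06, -0.11 and -0.00, so the arrays were not treated as paired. Alternatives were a 75th percentile shift, normexp (offset 50, on the median signal because a mean signal is not among the columns used), other filters, the mean of a gene's probes, an intensity trend, the deposited processed intensity, the replicate number as a block, the adjusted threshold alone, each array left out, and, chosen after seeing the data, each other probe of a gene, the counts in each list, and those counts without Sox17 and Ltf.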

Additional observations from a re-analysis of the deposited data

How the results depend on the processing

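Over the 15 alternatives the count of called genes among the 9 was 2 each time, both higher. Signs changed only for genes that were not called. After a 75th percentile shift the log2 fold change was -0.013 for Pgr and -0.0043 for Fkbp4, and after normexp correction it was -0.092 for Fkbp4. Leaving out 1 array at a time gave -0.081 to 0.0020 for Esr1, -0.016 to 0.032 for Pgr and -0.052 to 0.14 for Fkbp4, and the cause was not tested. With the replicate block Greb1 was 1.71 (adjusted p = 0.00843) and Fkbp5 0.77 (adjusted p = 0.0398) on the log2 scale, no call among the 9 changed, and 1796 genes were called, against 1857 without it, while the number at an adjusted p under 0.05 went from 2808 to 1856. Over the processing alternatives the number of genes called ran from 1532 (normexp) to 1885 (no filter on dim probes), and the adjusted threshold alone passed 2808. The 75th percentile shift moved the median of all genes to -0.02. Among the lists, counts of the estrogen-responsive (8 to 10 higher), progesterone-responsive (9 to 14 lower) and glucocorticoid-responsive genes (3 to 4 higher, 4 lower) stayed within 1.5 times the reported ones. Counts of 3 or fewer moved more, between 1 and 2 for progesterone-responsive genes called higher, between 1 and 4 for receptors called higher and between 0 and 2 for coactivators called higher. Probes near background limit what can be said of Esrrb, Krt5, Clca1, Acod1, Areg, Il6 and Akr1c18 to bounds, while all 14 probes of the 9 genes were well above background on all 6 arrays.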
